A study of Mus musculus with 8 samples.

Results

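The 10 genes described here encode transcription factors of the immediate-early class in mouse embryonic fibroblasts: Fos, Fosb, Fosl1 and Fosl2 of the FOS family, Jun, Junb and Jund of the JUN family, the zinc finger factors Egr1 and Egr2, and Myc. They were chosen by symbol from the 23366 gene symbols of the count table, with earlier results of these data known. Of these, 10 of 10 passed the filter on low counts. For a symbol with several rows, the row with the most counts was taken. RNA was sequenced from 8 libraries in 4 groups of 2: kdm3a KO cells starved of glucose, kdm3a KO cells when fed, WT cells starved of glucose and WT cells when fed. Both genotypes were C57BL/6 cells at passages 3 to 5. Fed cells (0 h) grew in DMEM with 10% FBS, and starved cells spent 12 h in DMEM without glucose and with 10% dialyzed FBS. No group was kept fed for 12 h, so the effect of losing glucose cannot be told apart from that of fresh medium, dialyzed serum or elapsed time. The design asked how expression depends on Kdm3a, a histone H3K9 demethylase gene, with and without glucose.

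Immediate-early genes are transcribed soon after a growth factor or stress signal reaches the cell, without a need for new protein synthesis, and most of their mRNAs are short-lived. FOS proteins pair with JUN proteins to form AP-1, which binds DNA at sites in matrix protease, cytokine and growth genes, while JUN proteins can also pair with each other or with ATF proteins. EGR factors bind GC-rich sites and are held back by the NAB corepressors. MYC pairs with MAX at E-boxes and is known for raising ribosome, nucleotide and one-carbon genes in dividing cells.

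Totals per library ran from 38407520 to 53602289 counts, and levels below are counts per 1e+06 reads (CPM) with library sizes adjusted by the trimmed mean of M-values (TMM). Kdm3a itself had 65.4 and 66.7 CPM in starved KO libraries, 55.2 and 55.4 CPM in fed KO libraries, 176 and 185 CPM in starved WT libraries and 56.1 and 56.4 CPM in fed WT libraries. The fed difference was -0.02 ± 0.0427 (log2, SE; adjusted p = 0.619), and its sign changed with the scaling. The count of Kdm3a therefore does not check the KO label, since a whole-transcript count cannot show the loss of an exon, and the libraries are called KO-labelled. Xist stood at 869 CPM or more in the KO-labelled libraries and at 1.54 CPM or less in WT, while each of 4 Y-linked genes had at most 2 counts in a KO-labelled library and at least 296 in a WT library. Genotype and sex of the cells can therefore not be told apart in any comparison between KO-labelled and WT cells. Fibroblast markers (13 genes, led by Vim and collagen genes) summed to 5490 to 5500 CPM in starved KO-labelled, 7670 to 7740 CPM in fed KO-labelled, 12700 CPM in starved WT and 17100 to 17500 CPM in fed WT libraries. Of these markers, Fap and Lum were at 0 in starved WT libraries. By the test described below, 5 of the 13 were higher and 6 lower in KO-labelled than in WT cells when fed. When starved, 7 were higher and 6 lower. Over all tested genes 34.5% were higher and 39.8% lower when fed, and 41.9% and 37.7% when starved. The sums therefore follow their most abundant genes and not the list as a whole.

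Differences were tested with edgeR's quasi-likelihood test over all 8 libraries, with Benjamini-Hochberg adjustment over 14418 genes and a threshold of 0.05, and each log2 fold change is given with its standard error. In starved over fed KO-labelled cells 8 of the 10 genes were called, 6 higher and 2 lower, beside 79.7% of all tested genes called (39.4% higher, 40.3% lower). In starved over fed WT cells 9 were called, 5 higher and 4 lower, beside 81.6% of all tested genes (36.7% higher, 44.8% lower). When fed, 9 differed between KO-labelled and WT cells, 5 higher and 4 lower, beside 74.4% of all tested genes (34.5% higher, 39.8% lower). When starved, 8 differed, 6 higher and 2 lower, beside 79.6% (41.9% higher, 37.7% lower). The starvation responses differed between the genotypes for 6 genes, 2 with a higher and 4 with a lower response in KO-labelled cells, beside 64.5% (34.1% higher, 30.4% lower). The median log2 fold change of the 10 genes was 0.39 in KO-labelled and -0.01 in WT starvation, beside -0.02 and -0.17 over all tested genes. The shares called are near those of all genes, so the counts set nothing apart about these 10 genes, and the values of each gene follow.

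Scaling mattered for directions. With library totals in place of TMM, the median of all tested genes moved by -0.26 in KO-labelled starvation, -0.46 in WT starvation, 0.32 between genotypes when starved, 0.12 between genotypes when fed and 0.2 in the difference of responses (log2). The share of calls that were higher was then 37% against 49.4% with TMM in KO-labelled starvation, 28.2% against 45% in WT starvation, 67.4% against 52.6% between genotypes when starved, 55.1% against 46.4% between genotypes when fed and 67% against 52.9% in the difference of responses. Of the 10 genes, 5 rose and 2 fell in KO-labelled starvation with totals, and 2 rose and 6 fell in WT starvation. The comparisons also share libraries with one another, so their values stand side by side and are not independent of each other. The labels do not say whether replicates were separate cultures, so the p-values reflect only the variation from library to library, which may be technical. In bulk RNA, fewer cells that express a gene and less of its RNA per cell cannot be told apart.

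**Figure D1:**
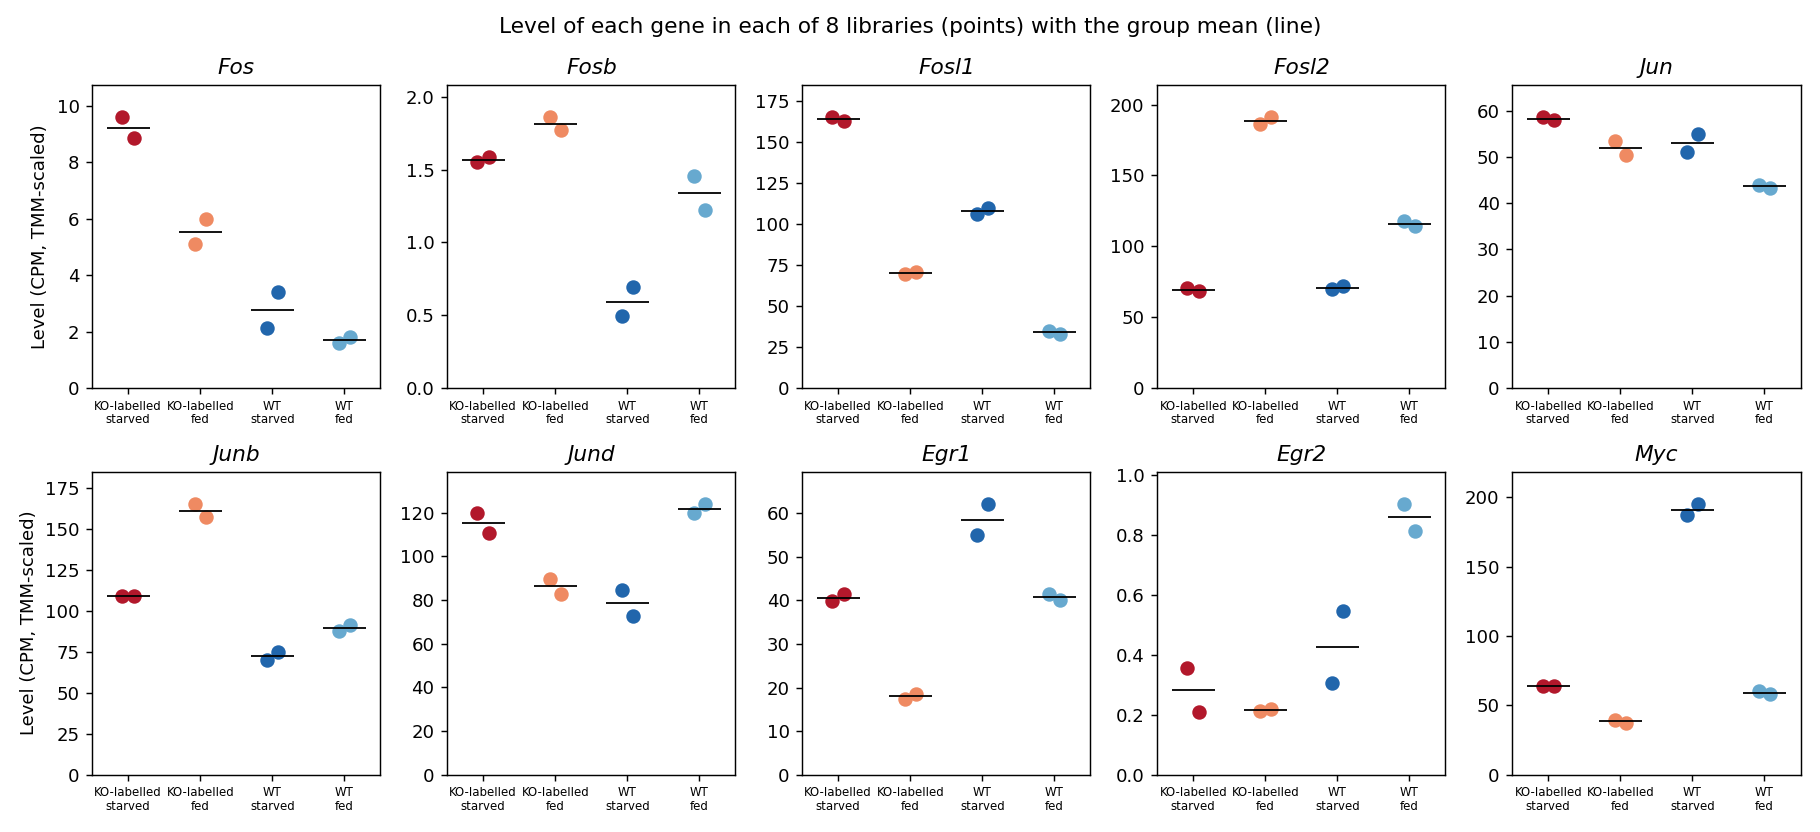
Level of each gene (CPM, TMM-scaled, y axis from 0, a scale of its own per panel) in the 8 libraries (points) with the mean of each group of 2 (line). Myc stands at 187 and 195 CPM in starved WT cells, Fosl2 is highest in fed KO-labelled cells at 186 and 191 CPM, and Fosl1 is high in both starved groups.

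Fos, the founding member of its family, was a low gene here and higher in every KO-labelled library than in every WT library. It had 9.6 and 8.86 CPM in starved and 5.09 and 5.98 CPM in fed KO-labelled libraries, and 2.12 and 3.42 CPM in starved and 1.6 and 1.82 CPM in fed WT libraries. No groups overlapped, and the order was starved KO-labelled, fed KO-labelled, starved WT, fed WT. KO-labelled cells were 3.23-fold above WT when fed (1.69 ± 0.194, adjusted p = 9.57e-08) and 3.32-fold when starved (1.73 ± 0.181, adjusted p = 1.72e-08). Larger absolute differences were seen for 15.3% of tested genes when fed and 20.9% when starved. Starvation raised Fos by 0.74 ± 0.154 in KO-labelled cells (adjusted p = 0.000179) and by 0.7 ± 0.226 in WT cells (adjusted p = 0.00769). The WT call was lost without starved WT replicate 2 (0.39, adjusted p = 0.16) and with library totals (0.24, adjusted p = 0.322). The responses differed by 0.04 ± 0.279 between genotypes (adjusted p = 0.919).

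The promoter of Fos is shown because its cAMP response elements and TATA box are classical sites of the gene. In the RefSeq promoter table (GRCm38.p6) the 250 bases before the listed start lie at chr12:85473640-85473889 on the plus strand. Capitals mark 2 copies of the core TGACG, 129 and 66 bases before the start, and the TATAAA 33 bases before it.
Fos promoter: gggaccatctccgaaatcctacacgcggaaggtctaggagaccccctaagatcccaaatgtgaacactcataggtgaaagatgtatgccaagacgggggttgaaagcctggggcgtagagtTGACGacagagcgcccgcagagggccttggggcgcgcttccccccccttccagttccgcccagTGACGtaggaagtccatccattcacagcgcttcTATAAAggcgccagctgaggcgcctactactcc
Searched on both strands over the same 250 bases of 32851 promoters, TGACG was present in 17.8% and TATAAA in 12.4%. TGACG and TATAAA were picked after the first search, and a match is only a description of the letters. The full cAMP response element TGACGTCA, part of the first search, was in 1.55% of promoters. It was found for 0 of the 7 of these genes with a listed promoter, Fos among them.

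Fosb, whose protein is a close relative of FOS, was higher in starved KO-labelled than in starved WT cells. It had 1.55 and 1.59 CPM in starved and 1.86 and 1.77 CPM in fed KO-labelled libraries, and 0.491 and 0.697 CPM in starved and 1.46 and 1.22 CPM in fed WT libraries. The starved WT libraries lay below all others, and no groups overlapped. Starvation gave -0.21 ± 0.26 in KO-labelled cells (adjusted p = 0.461). In WT cells it lowered Fosb, at -1.17 ± 0.34 (adjusted p = 0.0036; -0.87 and adjusted p = 0.055 without starved WT replicate 1). The difference of the responses was 0.96 ± 0.431 (adjusted p = 0.0578; 1.16 and adjusted p = 0.0231 with library totals). The genotypes differed by 1.4 ± 0.33 when starved (adjusted p = 0.000633) and by 0.44 ± 0.269 when fed (adjusted p = 0.147).

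Fosl1, which encodes FRA1, was the FOS family gene that starvation raised most in both genotypes. It had 165 and 163 CPM in starved and 69.6 and 70.6 CPM in fed KO-labelled libraries, and 106 and 110 CPM in starved and 34.7 and 32.9 CPM in fed WT libraries. Starved libraries lay above fed ones and KO-labelled above WT in the same state, with no overlap. Starvation raised it 2.34-fold in KO-labelled cells (1.23 ± 0.0393, adjusted p = 2.82e-17) and 3.19-fold in WT cells (1.67 ± 0.0443, adjusted p = 7.45e-19). The response in KO-labelled cells was smaller by 0.45 on the log2 scale (-0.45 ± 0.059, adjusted p = 1e-06). KO-labelled cells were above WT by 1.05 ± 0.044 when fed (adjusted p = 5.28e-15) and by 0.6 ± 0.0393 when starved (adjusted p = 7.03e-12).

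Reads of Fosl1 are uncertain, because an annotated exon of Ccdc85b on the opposite strand shares up to 1055 bases with its exons in the GENCODE annotation, and no source used here states that counting used strand. Ccdc85b had 178 and 168 CPM in starved and 96.2 and 95.4 CPM in fed KO-labelled libraries, and 163 and 163 CPM in starved and 95.5 and 90.2 CPM in fed WT libraries. It rose with starvation by 0.85 ± 0.0388 in KO-labelled and 0.81 ± 0.0401 in WT cells. Between genotypes it was not called, at 0.05 ± 0.04 when fed (adjusted p = 0.311) and 0.08 ± 0.0386 when starved (adjusted p = 0.0559). How far its reads enter the Fosl1 values was not tested.

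Fosl2, which encodes FRA2, moved the other way. It had 70.5 and 68.3 CPM in starved and 186 and 191 CPM in fed KO-labelled libraries, and 69.7 and 72 CPM in starved and 118 and 114 CPM in fed WT libraries. The fed groups stood apart from each other, while the starved groups overlapped. Starvation lowered it 2.72-fold in KO-labelled cells (-1.45 ± 0.0388, adjusted p = 1.4e-18) and 1.63-fold in WT cells (-0.71 ± 0.0408, adjusted p = 6.29e-13), and the fall was larger in KO-labelled cells (-0.74 ± 0.0562, adjusted p = 2.79e-10). KO-labelled cells were above WT when fed (0.71 ± 0.0377, adjusted p = 3.52e-13). When starved the difference was -0.03 ± 0.0416 (adjusted p = 0.511). That value depended on the scaling, at 0.29 with library totals (adjusted p = 1.61e-06), and was called lower at -0.09 with DESeq2 size factors and at -0.12 without starved WT replicate 1.

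Set per kilobase of transcript, the FOS family was made up of Fosl1 and Fosl2 reads for the most part, and their balance changed with starvation. Fosl1 took 84.9 and 85.3% of the family's reads per kilobase in starved and 54.3 and 53.7% in fed KO-labelled libraries. In WT it took 82.8 and 82.1% when starved and 49.3 and 48.7% when fed. The ratio of Fosl1 to Fosl2 per kilobase was 8.19 and 8.37 in starved and 1.31 and 1.29 in fed KO-labelled libraries, and 5.34 and 5.34 in starved and 1.03 and 1.02 in fed WT libraries. The ratio within a library does not depend on the scaling, and the 4 groups did not overlap. The uncertainty about Fosl1 reads applies to these shares too.

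**Figure D2:**
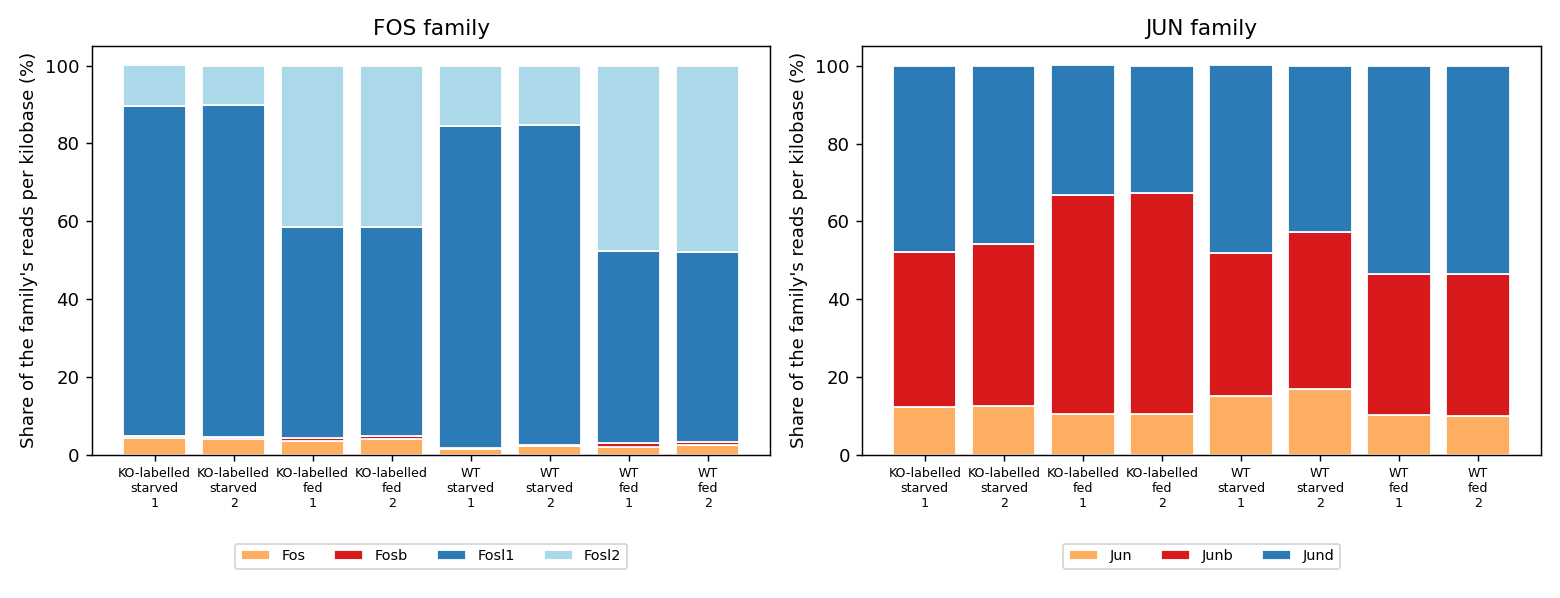
Share of the reads per kilobase of transcript (%) that each gene took of its family in each of the 8 libraries, FOS family and JUN family in separate panels. Fosl1 takes 82.1% or more in starved and 54.3% or less in fed libraries, and Jund takes its largest share in fed WT libraries at 53.6 and 53.7%.

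Jun, the best-known AP-1 partner of FOS, had the smallest absolute fold change of the 10 in both starvation comparisons. It had 58.6 and 58 CPM in starved and 53.5 and 50.5 CPM in fed KO-labelled libraries, and 51.1 and 54.9 CPM in starved and 44 and 43.3 CPM in fed WT libraries. Fed WT libraries were lowest, and the ranges of starved WT and fed KO-labelled libraries overlapped. The log2 differences were 0.16 ± 0.0485 for KO-labelled starvation (adjusted p = 0.00424), 0.28 ± 0.0521 for WT starvation (adjusted p = 4.78e-05), 0.25 ± 0.0501 between genotypes when fed (adjusted p = 0.000127) and 0.14 ± 0.0505 when starved (adjusted p = 0.0186). The directions of the starvation values did not hold under library totals, at -0.09 in KO-labelled and -0.18 in WT cells. The KO-labelled starvation call was lost with DESeq2 (0.13, adjusted p = 0.0784), with a filter at 5 CPM (0.07) and without fed KO-labelled replicate 2 (0.13). The call between starved genotypes was lost with DESeq2 size factors, with DESeq2 and without starved WT replicate 1, starved WT replicate 2 or starved KO-labelled replicate 1 (0.02 to 0.13). The responses differed by -0.12 ± 0.0712 between genotypes (adjusted p = 0.161), and this was called, at -0.29 to -0.19, with DESeq2 size factors, with DESeq2, with the 5 CPM filter and without either starved WT library. Exons of Jun share up to 232 bases, and those of Jund up to 543, with genes annotated on the other strand (Junos and Gm11175), whose reads were not tested for. For 82.6% of tested genes the absolute WT response was larger than for Jun.

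The Jun promoter is shown because it carries the known AP-1-like site through which JUN acts on its own gene. The 250 bases before its listed start lie at chr4:95052223-95052472 on the minus strand, and capitals mark CCAAT, 65 bases before the start, and TGACATCA, 45 bases before it.
Jun promoter: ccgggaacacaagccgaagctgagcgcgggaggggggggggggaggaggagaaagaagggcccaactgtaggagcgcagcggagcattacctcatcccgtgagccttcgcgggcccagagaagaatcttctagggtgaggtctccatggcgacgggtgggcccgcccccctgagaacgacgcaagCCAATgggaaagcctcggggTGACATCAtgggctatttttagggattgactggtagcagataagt
TGACATCA was present in 2.93% and CCAAT in 33.8% of the 32851 promoters, both strands searched. Both motifs were picked after the first search. The consensus TGANTCA, present in 6.75% of promoters, was found for 0 of the 7 of these genes that had a listed promoter.

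Junb, which can restrain JUN at some promoters, was higher in every KO-labelled library than in every WT library. It had 109 and 109 CPM in starved and 165 and 157 CPM in fed KO-labelled libraries, and 70 and 74.7 CPM in starved and 87.9 and 91.2 CPM in fed WT libraries. No groups overlapped. KO-labelled cells were above WT by 0.85 ± 0.0407 when fed (adjusted p = 5.79e-14) and by 0.59 ± 0.0429 when starved (adjusted p = 4.75e-11). Junb fell with starvation, at -0.57 ± 0.0398 in KO-labelled cells (adjusted p = 2.26e-11) and -0.31 ± 0.0436 in WT cells (adjusted p = 1.42e-06). The responses differed by -0.26 ± 0.0591 (adjusted p = 0.000613), and by -0.06 with library totals (adjusted p = 0.385).

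The Junb promoter is printed for comparison with those of Fos and Jun. Its 250 bases lie at chr8:84978749-84978998 on the minus strand, with TGACG 106 bases and CCAAT 36 bases before the start in capitals.
Junb promoter: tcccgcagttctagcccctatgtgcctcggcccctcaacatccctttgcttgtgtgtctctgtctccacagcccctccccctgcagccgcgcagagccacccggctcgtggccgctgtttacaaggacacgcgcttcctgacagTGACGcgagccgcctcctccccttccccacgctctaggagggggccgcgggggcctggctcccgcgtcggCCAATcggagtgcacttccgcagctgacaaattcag
TGACG was found in the promoters of 4 of the 7 genes searched, Egr2, Fos, Fosb and Junb, and CCAAT in those of Egr2, Jun and Junb.

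Jund, a JUN family member known for steady expression in resting cells, was the 1 gene of the 10 called in opposite directions by the starvation comparisons. It had 120 and 111 CPM in starved and 89.8 and 82.8 CPM in fed KO-labelled libraries, and 84.8 and 72.7 CPM in starved and 120 and 124 CPM in fed WT libraries. The groups of fed KO-labelled and starved WT libraries overlapped in the low range, and the other two groups lay above them. Starvation raised it by 0.42 ± 0.0554 in KO-labelled cells (adjusted p = 5.76e-07) and lowered it in WT cells, at -0.63 ± 0.0579 (adjusted p = 1.78e-09). The difference of the responses was 1.05 ± 0.0801 (adjusted p = 2.83e-10). KO-labelled cells were thus below WT when fed (-0.5 ± 0.0556, adjusted p = 6.18e-08) and above WT when starved (0.55 ± 0.0577, adjusted p = 1.71e-08). Opposite calls by the starvation comparisons were made for 9.59% of all tested genes. Per kilobase, Jund and Junb made up the larger share of the JUN family in all 8 libraries. Jund took 47.9 and 45.9% in starved and 33.3 and 32.6% in fed KO-labelled libraries, and 48.2 and 42.7% in starved and 53.6 and 53.7% in fed WT libraries.

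**Figure D3:**
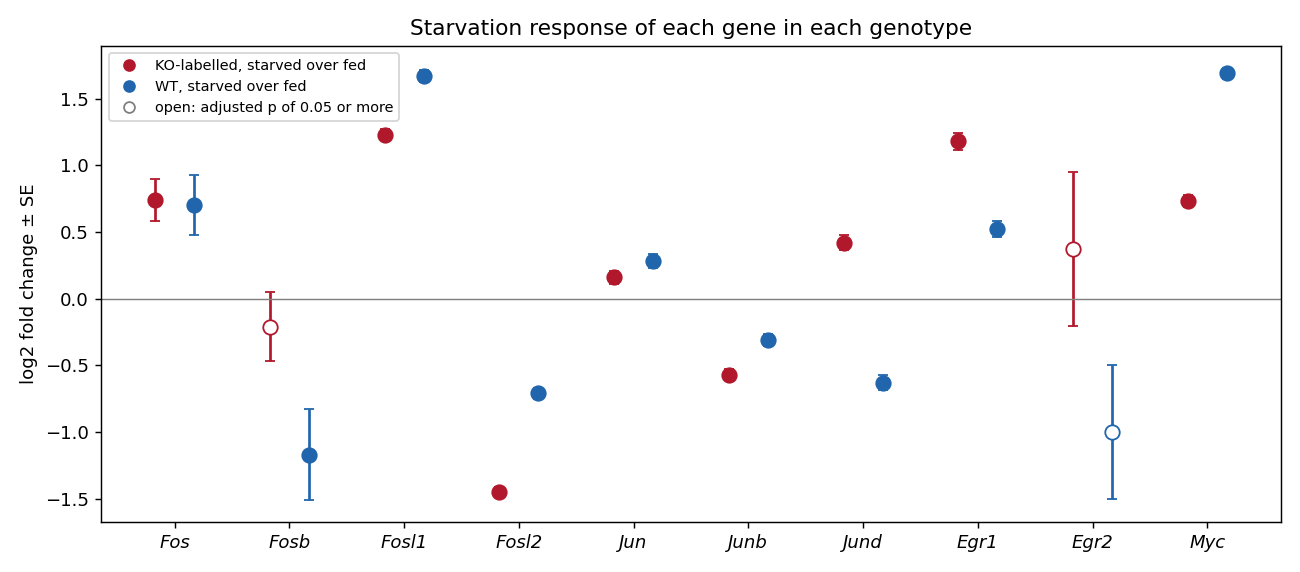
Log2 fold change of starved over fed cells (y axis, ± SE) for each of the 10 genes in KO-labelled and WT cells; filled points have an adjusted p under 0.05. Jund is above 0 in KO-labelled and below 0 in WT cells, at 0.42 and -0.63, and the WT responses of Myc (1.69) and Fosl1 (1.67) are the highest.

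Egr1, a zinc finger factor that growth factors induce through serum response elements, was lowest in fed KO-labelled cells. It had 39.9 and 41.4 CPM in starved and 17.4 and 18.5 CPM in fed KO-labelled libraries, and 55 and 62.1 CPM in starved and 41.4 and 40.1 CPM in fed WT libraries. Starved WT libraries were highest, and the starved KO-labelled and the fed WT libraries overlapped. Starvation raised Egr1 by 1.18 ± 0.064 in KO-labelled cells (adjusted p = 2.5e-13) and by 0.52 ± 0.0607 in WT cells (adjusted p = 7.67e-08; 0.07 and adjusted p = 0.314 with library totals). The response in KO-labelled cells was larger by 0.66 ± 0.0882 (adjusted p = 1.27e-06). KO-labelled cells were below WT, at -1.18 ± 0.0646 when fed (adjusted p = 5.21e-13) and -0.53 ± 0.0601 when starved (adjusted p = 6.81e-08).

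Egr2, known for its part in myelination and hindbrain patterning, was a very low gene, with 10 to 39 counts per library. It had 0.355 and 0.208 CPM in starved and 0.211 and 0.219 CPM in fed KO-labelled libraries, and 0.307 and 0.545 CPM in starved and 0.903 and 0.814 CPM in fed WT libraries. Only the fed WT libraries stood clear of the others. KO-labelled cells were 3.97-fold below WT when fed (-1.99 ± 0.507, adjusted p = 0.00146). When starved the difference was -0.62 ± 0.566 (adjusted p = 0.322), and the difference of the responses was 1.37 ± 0.767 (adjusted p = 0.125). Starvation gave 0.37 ± 0.578 in KO-labelled cells (adjusted p = 0.565; -0.04 without starved KO-labelled replicate 1) and -1 ± 0.499 in WT cells (adjusted p = 0.0697; -1.46 and adjusted p = 0.0103 with library totals).

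A CArG box, the core of the serum response element, is shown from the Egr2 locus because serum response factor is the textbook regulator of EGR genes. The stretch shown lies at chr10:67537787-67537816 on the plus strand. The CArG box within it, in capitals, starts 72 bases before one of the listed starts.
Egr2 CArG site: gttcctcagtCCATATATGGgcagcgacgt
CArG boxes were found in 1.47% of all promoters and in 1 of the 7 searched. The E-box CACGTG, present in 6.02%, was also found in 1 of the 7, that of Egr2 again.

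Myc and Fosl1 had the largest rises of the 10 genes in WT cells, at 1.69 and 1.67, which their standard errors do not separate. Myc had 64.2 and 64 CPM in starved and 39.7 and 37.5 CPM in fed KO-labelled libraries, and 187 and 195 CPM in starved and 60.5 and 57.9 CPM in fed WT libraries. Starved WT libraries stood far above the rest, and no groups overlapped. Starvation raised Myc 1.66-fold in KO-labelled cells (0.73 ± 0.0451, adjusted p = 2.56e-12) and 3.22-fold in WT cells (1.69 ± 0.0433, adjusted p = 4.4e-19). The rise in KO-labelled cells was smaller (-0.96 ± 0.0623, adjusted p = 2.26e-11). KO-labelled cells were below WT, 1.53-fold when fed (-0.62 ± 0.0458, adjusted p = 9.54e-11) and 2.98-fold when starved (-1.58 ± 0.0426, adjusted p = 2.11e-18). Larger absolute differences between starved genotypes were seen for 23.4% of tested genes. The table holds 4 Myc rows, whose counts differed by at most 1.

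**Figure D4:**
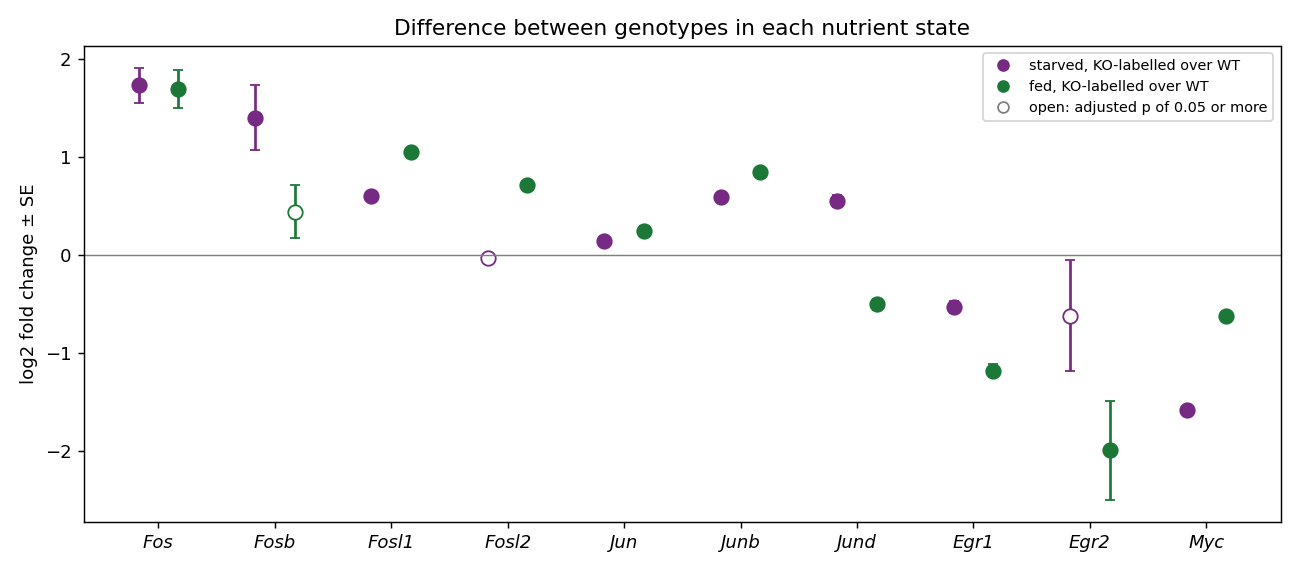
Log2 fold change of KO-labelled over WT cells (y axis, ± SE) for each of the 10 genes, starved and fed; filled points have an adjusted p under 0.05. Fos is far above 0 in both states (1.73 starved, 1.69 fed), Myc is below 0 in both (-1.58 starved, -0.62 fed) and Fosl2 has a filled point when fed and an open one when starved.

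The 10 genes did not share 1 profile over the 8 libraries. As a description, the root mean square distance between centred log2 CPM profiles was smallest for Fosb and Junb (0.351) and for Jun and Jund (0.357). It was 0.392 for Fosl2 and Junb, 0.423 for Jun and Junb and 0.462 for Egr1 and Myc. From 679 to 3048 of the 14418 tested genes lay nearer to a gene of the 10 than its nearest fellow did. The nearest genes outside the 10 were Eif4b, a translation initiation factor gene, for Myc (0.0734), Cnn2, a calponin gene, for Egr1 (0.0771), and Pikfyve, a lipid kinase gene, for Fosl1 (0.0664). For Jun it was Gpatch8 (0.0402), for Junb Tomm40l (0.0421), for Jund Trim39 (0.0666), for Fosl2 9830001H06Rik (0.0919), for Fosb E130309D02Rik (0.0989) and for Fos Sgcb (0.171). For Egr2, whose low counts make its profile noisy, the nearest was Fam46c (0.209). As transcripts the 10 genes were also described by features taken from annotation and sequence. Jun, Junb and Jund have 1 exon, as do 13% of genes with a transcript in GENCODE. The pentamer AUUUA, a core of mRNA decay elements, was counted as ATTTA in the 3′ untranslated regions. Its density was above the median of all genes (1.07 per kilobase) in 9 of the 10, and highest in Fos (4.91), Myc (4.52) and Junb (4.12). These densities rest on few matches, with 4 in Fos and 2 each in Myc and Junb. By count, 4 of the 10 genes had 3 or more matches, beside 30.4% of all genes with a 3′ untranslated region.

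AP-1 is shaped by the other leucine zipper factors that JUN proteins pair with, and by small MAF proteins. Of 15 tested partner genes 9 rose and 2 fell in starved KO-labelled cells (median 0.31, beside -0.02 for all tested genes), and 10 rose and 4 fell in starved WT cells (0.86, beside -0.17). Of all tested genes, 39.4% rose and 40.3% fell in KO-labelled and 36.7% rose and 44.8% fell in WT starvation. Atf3, a stress-induced repressor and partner of JUN, averaged 185 CPM in starved and 21.5 CPM in fed KO-labelled cells, and 204 CPM in starved and 3.36 CPM in fed WT cells. That is a rise of 3.11 ± 0.0476 in KO-labelled and 5.92 ± 0.0655 in WT cells. Maff rose by 1.75 ± 0.0446 in KO-labelled and by 4.77 ± 0.056 in WT cells, and Mafk rose by 2.04 ± 0.0398 in KO-labelled and by 2.59 ± 0.0473 in WT cells. When starved, 4 partner genes were higher and 10 lower in KO-labelled than in WT cells (median -0.22), beside 41.9% higher and 37.7% lower of all tested genes. With library totals the starved counts were 6 higher and 5 lower (median 0.09), so the balance depended on the scaling. When fed, 9 were higher and 4 lower, beside 34.5% and 39.8% of all tested genes.

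Genes that textbooks name as AP-1 targets include matrix proteases, cytokines and growth genes. Of 18 target genes, 12 were higher and 4 lower in fed KO-labelled than in fed WT cells (median 0.69, beside -0.06 for all tested genes). When starved, 11 were higher and 6 lower (0.6, beside 0.07), or 13 higher and 3 lower with library totals. Of all tested genes, 34.5% were higher and 39.8% lower when fed, and 41.9% were higher and 37.7% lower when starved, with TMM. Mmp3, which encodes the matrix protease stromelysin, averaged 98.5 CPM in starved and 266 CPM in fed KO-labelled cells, and 0.826 CPM in starved and 1.45 CPM in fed WT cells. The collagenase gene Mmp13 averaged 67 CPM in starved and 45.8 CPM in fed KO-labelled cells, and 2.78 CPM in starved and 0.55 CPM in fed WT cells. These are differences of 7.51 ± 0.109 for Mmp3 and 6.36 ± 0.132 for Mmp13 when fed, and of 6.9 ± 0.138 for Mmp3 and 4.59 ± 0.102 for Mmp13 when starved. Not all proteases of the list did the same: Mmp9 gave 0.89 ± 0.497 when fed (adjusted p = 0.113), and Plau, the urokinase gene, was lower in KO-labelled cells, at -1.33 ± 0.0691 when fed and -0.25 ± 0.0934 when starved. Mmp9 and Plau were chosen after their values were seen. Mmp10 had 0 counts in starved WT libraries and was at least 14.6-fold higher in starved KO-labelled cells, taking 3 counts in each WT library as the floor. With starvation 10 target genes rose and 6 fell in KO-labelled cells (median 0.38), or 7 rose and 7 fell with library totals. In WT cells 8 rose and 6 fell (median 0.21). The WT median was 0.44 with Fgf21 set to its bound and Mmp10, under the floor in both WT groups, set to 0. Of all tested genes, 39.4% rose and 40.3% fell in KO-labelled and 36.7% rose and 44.8% fell in WT starvation. Fgf21, a starvation hormone gene, was counted among the 18 although it is not a classical AP-1 target. It had 0 counts in all fed libraries and rose at least 26.9-fold in KO-labelled and 31.1-fold in WT cells. Whether AP-1 had a part in this rise was not tested. Ccl2, a chemokine gene, fell, at -3.53 ± 0.0393 in KO-labelled and -3.18 ± 0.0426 in WT cells. Macrophage and blood cell markers summed to 47.4 to 47.7 CPM in starved KO-labelled libraries, 4.21 to 4.72 CPM in fed KO-labelled, 4.3 to 5.88 CPM in starved WT and 2.8 to 3.49 CPM in fed WT libraries. Of their 9 genes Cd68 led in each group, and Ptprc and Emr1, which define blood cells and macrophages, were at 0 in all 8 libraries. The part of these markers' cells in the target values was not tested.

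MYC target genes of textbooks encode mainly ribosome assembly, nucleotide, one-carbon, translation and cell cycle proteins. Of 30 such genes, 25 rose and 5 fell in KO-labelled cells (median 1.01, beside -0.02 for all tested genes), and 26 rose and 3 fell in WT cells (median 1.44, beside -0.17). Of all tested genes, 39.4% rose and 40.3% fell in KO-labelled and 36.7% rose and 44.8% fell in WT starvation. With library totals the medians of the 30 genes were 0.76 in KO-labelled and 0.98 in WT cells. Gnl3, a nucleolar GTPase gene, averaged 142 CPM in starved and 36.2 CPM in fed KO-labelled cells, and 489 CPM in starved and 92.9 CPM in fed WT cells. Odc1, the first enzyme of polyamine synthesis, rose by 2.81 ± 0.0303 in KO-labelled and 1.84 ± 0.0291 in WT cells. Rrp9 rose by 1.97 ± 0.0478 in KO-labelled and 2.49 ± 0.048 in WT cells, and Shmt2, a mitochondrial one-carbon enzyme gene, by 2.41 ± 0.0308 in KO-labelled and 1.89 ± 0.0304 in WT cells. The falls included E2f2, a cell cycle factor gene, at -1.09 ± 0.221 in KO-labelled and -3.91 ± 0.28 in WT cells. Between genotypes, 7 targets were higher and 20 lower in fed KO-labelled than in fed WT cells (median -0.36, beside -0.06 for all tested genes). When starved, 3 targets were higher and 25 lower (median -0.58, beside 0.07). With library totals the starved counts were 11 higher and 19 lower (median -0.26). Of all tested genes, 34.5% were higher and 39.8% lower when fed, and 41.9% were higher and 37.7% lower when starved, with TMM. Proliferation markers, 9 genes led by Pcna, Top2a and Mki67, stood at 681 to 692 CPM in starved and 2280 to 2290 CPM in fed KO-labelled libraries, and at 725 to 727 CPM in starved and 1950 to 1960 CPM in fed WT libraries. Their part in these counts was not tested.

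**Figure D5:**
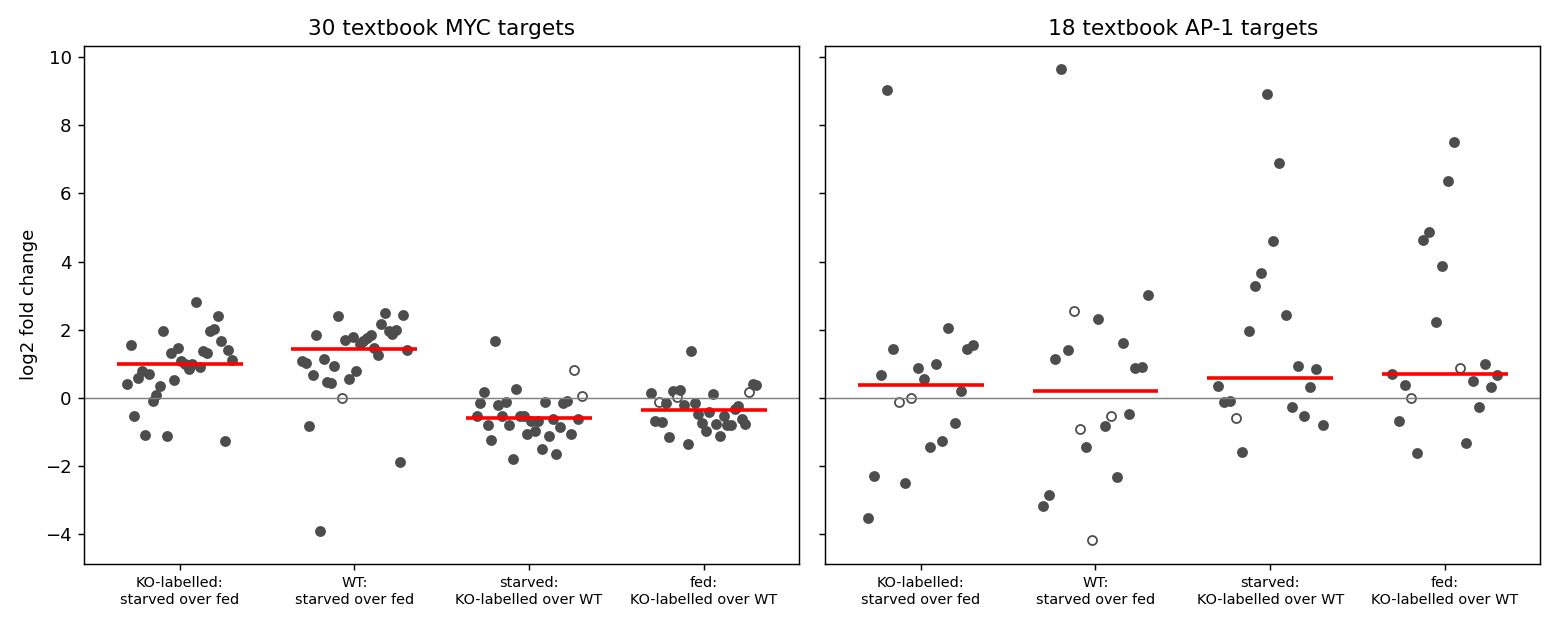
Log2 fold changes (y axis) of the genes in lists of MYC and AP-1 targets (points, with the median as a line) in 4 comparisons: starved over fed in KO-labelled and in WT cells, and KO-labelled over WT when starved and when fed. MYC target medians are 1.01 in KO-labelled and 1.44 in WT starvation; Fgf21 and Mmp10 have a group at 0 counts, so their plotted points are fitted values and not bounds.

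Partners of MYC followed a mixed course. Of 11 tested genes of the MYC, MAX and MXD network, 5 rose and 4 fell in starved KO-labelled cells (39.4% and 40.3% of all tested genes), and 7 rose and 4 fell in starved WT cells (36.7% and 44.8%). With library totals 3 rose and 6 fell in KO-labelled cells and 6 rose and 5 fell in WT cells, so the KO-labelled balance turned. Mxd1, which encodes a MAX partner opposed to MYC, averaged 14.2 CPM in starved and 10.7 CPM in fed KO-labelled cells, and 32.4 CPM in starved and 11.7 CPM in fed WT cells. In starved KO-labelled against starved WT cells 2 network genes were higher and 9 lower, beside 41.9% and 37.7% of all tested genes. With library totals 2 network genes were higher and 6 lower. Mycl1, which encodes L-MYC, had 0 counts in starved KO-labelled libraries and was at least 12.4-fold lower there than in starved WT libraries.

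The NAB corepressor genes and Egr3 fell or were not called with starvation. Of 3 tested EGR and NAB genes, 3 fell in starved KO-labelled cells and 2 in starved WT cells. Over all tested genes 40.3% fell in KO-labelled and 44.8% in WT starvation, and 3 genes are too few to set against these shares. Nab2, the corepressor gene that EGR factors induce, averaged 41.4 CPM in starved and 73.1 CPM in fed KO-labelled cells, and 85.6 CPM in starved and 99.6 CPM in fed WT cells, changes of -0.82 ± 0.0558 in KO-labelled and -0.22 ± 0.0541 in WT cells. Egr3, a relative of Egr2 with few counts, fell, at -3.35 ± 0.925 in KO-labelled and -2.5 ± 0.658 in WT cells. Of 9 EGR target genes 4 rose and 4 fell in KO-labelled starvation, and 3 rose and 6 fell in WT starvation. The shares of all tested genes that rose were 39.4% in KO-labelled and 36.7% in WT starvation. F3, the tissue factor gene, rose by 2.07 ± 0.0521 in KO-labelled and 2.34 ± 0.0475 in WT cells, and Thbs1, which encodes thrombospondin, fell, at -1.84 ± 0.0296 in KO-labelled and -2.35 ± 0.031 in WT cells.

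Upstream of these genes stand the MAP kinases and the SRF and TCF factors, and downstream the phosphatases and Sprouty proteins that limit MAP kinase signals. Srf rose by 1.63 ± 0.0424 in KO-labelled and 1.51 ± 0.042 in WT starvation, among 8 of 14 tested SRF, TCF, MRTF and CREB genes that rose in each genotype and 5 that fell. Of 19 MAP kinase genes, 7 rose and 10 fell in KO-labelled starvation, and 8 rose and 7 fell in WT starvation. With library totals 2 rose and 13 fell in KO-labelled and 1 rose and 13 fell in WT starvation, so the MAP kinase counts depended on the scaling. Over all tested genes 39.4% rose and 40.3% fell in KO-labelled and 36.7% rose and 44.8% fell in WT starvation. Of 17 phosphatase and Sprouty genes, 8 rose and 5 fell in each genotype. With library totals 7 rose and 7 fell in KO-labelled and 8 rose and 9 fell in WT starvation. Dusp4, a nuclear phosphatase of ERK, rose in both, by 4.28 ± 0.111 in KO-labelled and 4.14 ± 0.0802 in WT cells. Dusp6, the cytoplasmic ERK phosphatase, rose by 2.35 ± 0.0956 in KO-labelled cells, against 0.19 ± 0.0937 (adjusted p = 0.0703) in WT cells, and its responses differed by 2.16 ± 0.134. Spry1, a Sprouty gene, was lower in starved KO-labelled than in starved WT cells, at -5.74 ± 0.239. Of 20 growth factor receptor and ligand genes, 4 rose and 12 fell in KO-labelled starvation, and 5 rose and 12 fell in WT starvation.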

How the data were processed

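The data are read counts of 8 mouse embryonic fibroblast libraries. The table that the authors deposited has 31055 rows, named by RefSeq transcript and gene symbol, and its values are whole-number counts whose library totals differ, which is how they were taken as not normalised. TopHat2 2.0.9, bedtools and build mm9 appear in the submitters' processing notes, and whether strand was used is not given in the sources used here. A further 4 value columns could not be tied to a labelled sample and were left out. Library totals ran from 38407520 to 53602289 counts.

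Groups came from the sample titles, and the row with the most counts stood for each symbol. Counts were tested with edgeR 4.0.16 (limma 3.58.1, R 4.3.3), using TMM scaling, filterByExpr (14418 genes kept), 1 coefficient per group, 4 residual degrees of freedom and two-sided quasi-likelihood tests, with Benjamini-Hochberg adjustment over all tested genes at 0.05. A standard error is the size of the log2 fold change divided by the root of its F statistic. Against a group at 0 counts, a fold is a bound computed with 3 counts in each library of that group. Scripts were tested on simulated data.

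Alternatives were DESeq2 size factors, library totals, DESeq2 1.42.0, other filters, a replicate block, summed rows, only the groups compared, and leaving out each library. The 10 genes and the gene lists were chosen with earlier results of these data known. Named list genes were up to 3 with the largest called change in each starvation comparison and up to 2 in each other comparison. Promoter windows came from RefSeq (GRCm38.p6; 7 of 10 symbols matched), transcript features from GENCODE on GRCm38, which is not the build of the counts. Egr1, Fosl1 and Myc had no entry in the promoter table.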

Additional observations from a re-analysis of the deposited data

Results flagged for a closer look

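The starvation responses of 6 of the 10 genes differed between KO-labelled and WT cells by the test of the difference itself (edgeR quasi-likelihood test, adjusted over 14418 genes), beside 64.5% of all tested genes called. Jund had the largest difference, 1.05 on the log2 scale, with a response of 0.42 in KO-labelled and -0.63 in WT cells. Myc differed by -0.96, with 0.73 in KO-labelled and 1.69 in WT cells. Fosl2 differed by -0.74, with -1.45 in KO-labelled and -0.71 in WT cells. Egr1 differed by 0.66, with 1.18 in KO-labelled and 0.52 in WT cells. Fosl1 differed by -0.45, with 1.23 in KO-labelled and 1.67 in WT cells. Junb differed by -0.26, with -0.57 in KO-labelled and -0.31 in WT cells, and was not called with library totals.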

How the results depend on the processing

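Of the fold changes of the 10 genes under the alternatives, 746 kept direction and side of the threshold, 12 turned, 9 gained a call and 13 lost one. Counts of calls over all genes and over the 10 genes moved by over 1.5 times with library totals in WT starvation and under no other alternative run, at 3397 genes higher against 5296, and 2 of the 10 genes higher against 5; that scaling shifts all genes. Several gene lists also moved by over 1.5 times or turned with library totals, as given beside their counts. Library totals turned Jun to -0.09 in KO-labelled and -0.18 in WT starvation and to 0.08 in the difference of responses, and Fosl2 to 0.29 between starved genotypes. The difference of Fos responses, 0.04, became -0.06 with DESeq2 size factors, -0.06 with DESeq2 and -0.03 with at least 5 CPM in 2 libraries, and ran from -0.39 to 0.3 leaving out 1 library. Egr2 in KO-labelled starvation ran from -0.04 to 0.72 leaving out 1 library. The fed difference of Kdm3a gave 0.01 with DESeq2 size factors, 0.09 with totals, 0.01 with DESeq2, 0.02 with the 5 CPM filter, 0.03 with only the groups compared and -0.03 to 0.04 leaving out 1 library. The cause was not tested. Replicate numbers did not pair the libraries: deviations of same-numbered libraries correlated at -0.0189 to 0.0141 over 14418 genes, with 2 pairs per comparison. With the replicate block 5614 genes rose and 5730 fell in KO-labelled starvation, against 5678 and 5812 without it, 5254 rose and 6366 fell in WT starvation, against 5296 and 6464, and the number of the 10 genes called was the same in all 5 comparisons. Egr2, at 10 to 39 counts per library, and Fosb are limited by depth.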

Other observations

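Beyond the 10 genes, 31 other immediate-early genes were tested. Of them 18 rose and 12 fell in starved KO-labelled cells, and 18 rose and 11 fell in starved WT cells. With library totals 14 rose and 12 fell in KO-labelled and 16 rose and 14 fell in WT cells. Over all tested genes 39.4% rose and 40.3% fell in KO-labelled and 36.7% rose and 44.8% fell in WT starvation with TMM. The listed genes thus had no single direction in either genotype. Ptgs2, which encodes the inducible prostaglandin synthase COX-2, averaged 942 CPM in starved and 149 CPM in fed KO-labelled cells, and 878 CPM in starved and 32.5 CPM in fed WT cells. The kinase gene Pim1 rose by 1.37 ± 0.0593 in KO-labelled and by 4.21 ± 0.0637 in WT cells (log2, SE), and Tiparp rose by 0.95 ± 0.0428 in KO-labelled and by 4.08 ± 0.0524 in WT cells. Trib1, a pseudokinase gene, fell in both, at -2.18 ± 0.0713 in KO-labelled and -3.36 ± 0.0836 in WT cells. Btg2, an antiproliferative gene, averaged 61.2 CPM in starved and 49.7 CPM in fed KO-labelled cells, and 2.91 CPM in starved and 8.69 CPM in fed WT cells.

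Of 18 tested genes that act on the stability of JUN, FOS and MYC proteins or mRNAs, 9 rose and 6 fell in starved KO-labelled cells, and 11 rose and 6 fell in starved WT cells. With library totals the balance turned in both, to 6 that rose and 8 that fell in KO-labelled and 5 that rose and 11 that fell in WT cells. Over all tested genes 39.4% rose and 40.3% fell in KO-labelled and 36.7% rose and 44.8% fell in WT starvation with TMM. Usp36, a nucleolar deubiquitinase gene, rose by 1.77 ± 0.0465 in KO-labelled and by 2.56 ± 0.0472 in WT cells. Hnrnpd, which encodes the AU-rich element binding protein AUF1, averaged 41.1 CPM in starved and 180 CPM in fed KO-labelled cells, and 134 CPM in starved and 166 CPM in fed WT cells. Its responses differed between genotypes by -1.82 ± 0.0623.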
